A study of Mus musculus with 10 samples.

Results

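The 40 genes described here are expressed in vascular endothelium and were chosen by symbol as endothelial receptors, junction genes, surface proteins and transcription factors, among them genes that respond to blood flow and genes typical of arteries or lymphatic vessels. They are 40 of the 38720 gene symbols in the count table, and all 40 were present. They were measured by RNA sequencing of dissected mouse tail buds, the tissue at the hind end from which the body axis lengthens, on embryonic day 12.5, in a study of the Lin28/let-7 pathway. Embryos of the Lin28a-induced group (n = 4, replicates 2, 3, 4 and 5) had TRE-Lin28a, a doxycycline-dependent Lin28a transgene, RLSL-rtTA, a Cre-activated source of the doxycycline-dependent activator, and FoxD1-Cre, and were treated with doxycycline. The no-Cre group (replicates 6, 7 and 8, n = 3) had the same TRE-Lin28a and RLSL-rtTA alleles and the same doxycycline but lacked Cre. The wild-type group (replicates 1, 2 and 3, n = 3) is labelled with no allele and no treatment. Transgene, doxycycline and any difference in strain or handling therefore cannot be told apart in a comparison with wild type, and FoxD1-Cre acts only in cells that use that driver or descend from them, which were not identified here. The labels do not say that libraries came from separate embryos, so p-values measure the spread between libraries.

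Endothelial cells line blood and lymphatic vessels. They are set up and maintained by VEGF acting on its receptors and by angiopoietins acting on theirs, they hold together through VE-cadherin junctions, and ETS and SoxF transcription factors drive much of their gene expression. Blood flow, Notch signalling and the choice between artery, vein and lymphatic vessel then add further genes. In the growing tail, vessels extend as the tissue lengthens.

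Lin28a checked the labels: it had 664, 605, 750.3 and 731 CPM (counts divided by the TMM-scaled library size, per 1000000) in the Lin28a-induced libraries, against 5.03, 4.53 and 2.64 CPM in the no-Cre and 6.16, 5.72 and 4.45 CPM in the wild-type libraries. Total counts ran from 21762668 to 39517946 per library. The tail bud markers T, Tbx6 and Cdx2 were detected in every library. T had 328 to 460 CPM in Lin28a-induced, 291 to 306 CPM in no-Cre and 127 to 334 CPM in wild-type libraries, with overlap. The markers Msgn1, Wnt3a and Fgf8 overlapped too. Their highest wild-type levels were 53.2, 48.8 and 13.7 CPM, against lowest no-Cre levels of 53.1, 41.6 and 8.61 CPM. Tbx6 (136 to 199.7 CPM in Lin28a-induced, 179 to 205 CPM in no-Cre and 56.7 to 123.5 CPM in wild type), Cdx2 (77.3 to 93.5 CPM, 70.2 to 79.9 CPM and 40.03 to 54.03 CPM in the same order), Hes7 and Cyp26a1 were lower in every wild-type library than in every transgenic one, as were most endothelial genes below, and their part in those values was not tested. The wild-type libraries stood apart in composition: mitochondrially encoded genes held 0.446% to 0.690% of counts in Lin28a-induced and 0.525% to 0.610% in no-Cre libraries, against 1.85% to 2.69% in wild type. Wild-type replicate 2 differed most from its own group, with a chi-square per degree of freedom over genes of 29.6 and 28.8 against replicates 1 and 3, where the other 10 pairs of replicates gave 7.64 to 15.5.

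Promoter sequence was matched by symbol for 22 of the 40 genes, in 26 windows from 250 bases before to 50 bases after an annotated start (RefSeq, GRCm38.p6). The windows below are shown because they belong to the gene with the largest fold of Lin28a-induced over wild type (Klf2), to a gene that lacks all 4 searched motifs (Kdr) and to the only genes that hold the compound FOX:ETS motif (Egfl7, with both of its windows that hold a match, and Emcn). Capitals mark matches, on either strand, to CAGGAAG (an ETS factor motif), AACAGGAA (a combined forkhead and ETS motif, which overlaps CAGGAAG where the next base is G) or TAAATTTA (a MEF2 motif).
Klf2 chr8:72318812-72319111 (plus strand): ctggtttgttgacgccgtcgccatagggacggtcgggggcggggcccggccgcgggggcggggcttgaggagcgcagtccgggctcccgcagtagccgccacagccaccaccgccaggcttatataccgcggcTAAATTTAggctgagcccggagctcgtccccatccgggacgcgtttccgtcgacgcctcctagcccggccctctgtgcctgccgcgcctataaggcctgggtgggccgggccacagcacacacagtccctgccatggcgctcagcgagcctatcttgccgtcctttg
Kdr chr5:75978406-75978705 (minus strand): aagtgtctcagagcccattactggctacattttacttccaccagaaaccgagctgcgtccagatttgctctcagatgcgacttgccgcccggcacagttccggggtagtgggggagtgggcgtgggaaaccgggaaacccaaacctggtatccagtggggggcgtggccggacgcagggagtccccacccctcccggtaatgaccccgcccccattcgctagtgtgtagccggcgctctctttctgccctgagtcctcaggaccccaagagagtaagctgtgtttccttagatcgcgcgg
Egfl7 chr2:26580833-26581132 (plus strand): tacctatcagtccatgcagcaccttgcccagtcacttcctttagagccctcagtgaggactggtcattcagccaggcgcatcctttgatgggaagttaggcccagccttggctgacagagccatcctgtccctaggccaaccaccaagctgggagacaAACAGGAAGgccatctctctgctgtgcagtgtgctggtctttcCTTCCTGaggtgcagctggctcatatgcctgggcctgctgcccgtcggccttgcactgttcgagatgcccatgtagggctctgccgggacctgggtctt
Egfl7 chr2:26583615-26583914 (plus strand): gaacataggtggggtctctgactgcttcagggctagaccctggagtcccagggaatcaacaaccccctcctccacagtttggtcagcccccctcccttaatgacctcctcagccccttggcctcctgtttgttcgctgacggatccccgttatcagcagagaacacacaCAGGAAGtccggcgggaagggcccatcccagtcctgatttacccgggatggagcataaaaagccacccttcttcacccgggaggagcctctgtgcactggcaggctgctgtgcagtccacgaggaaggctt
Emcn chr3:137340828-137341127 (plus strand): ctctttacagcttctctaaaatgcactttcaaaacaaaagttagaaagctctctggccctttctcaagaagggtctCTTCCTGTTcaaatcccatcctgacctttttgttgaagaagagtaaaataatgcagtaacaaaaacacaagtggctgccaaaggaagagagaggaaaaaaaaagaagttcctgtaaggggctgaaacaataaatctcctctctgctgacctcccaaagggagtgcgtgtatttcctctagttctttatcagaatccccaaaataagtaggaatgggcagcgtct
CAGGAAG was found in 9 of the 26 windows (34.6%), in Cd34, Egfl7, Emcn, Erg, Notch4, Rasip1, Robo4 and Stab1, against 13.3% of all 32851 windows. AACAGGAA was found in 2 of the 26 windows (7.69%), against 2.65% of all windows. TAAATTTA was found in Erg and Klf2, also 2 of 26, against 0.545% of all windows. The motif of GATA factors, searched as AGATAA, was found in Erg and Tek, again 2 of 26, against 11.2% of all windows. These are matches of letters and not measured binding.

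Against the no-Cre group, which by its labels differs from the Lin28a-induced group in Cre alone, no endothelial gene passed the test in the main fit. This does not show that the levels are equal. The main fit took its spread from all 10 libraries, wild type included. Of the 40 genes, 38 passed the filter on low counts, and 0 of the 38 had an adjusted p under 0.05 in edgeR, where 1.76% of all 16340 tested genes were higher and 1.15% lower. At an unadjusted p under 0.05, 2 members were higher and 1 was lower, against 8.35% and 7.92% of all tested genes. limma-voom called none, where it called 1.92% of all tested genes higher and 1.38% lower. DESeq2 called 1 higher, where it called 3.62% of all genes higher and 3.4% lower. A fit of the compared groups alone called Egfl7, Clec14a and Robo4 higher (adjusted p 0.0128, 0.0384 and 0.0476). It also called more of all tested genes than the main fit, as counted in the closing section. The groups did not overlap for 2 higher members and 1 lower member, against 12% and 11.4% of all tested genes. The log2 fold change was above 0 for 21 members and below 0 for 17, against 49.7% above 0 of all tested genes, and its median was 0.02 over the members and -0.000824 over all tested genes. The 95% interval of the fold lay within 0.5 and 2 for 37 of the 38 members, and the exception was Gja5, with an interval from 0.267 to 2.46.

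Against wild type the same genes were higher together. In the Lin28a-induced libraries 35 of 38 members were higher and 0 lower (edgeR, adjusted p under 0.05), where 24.3% of all tested genes were higher and 25% lower. At an unadjusted p under 0.05 also 0 members were lower. limma-voom called 0 lower and DESeq2 called 1 lower, Lyve1, where they called 24.8% and 20% of all genes lower. In the no-Cre libraries 36 of 38 were higher and 0 lower, where 21% of all tested genes were higher and 21.4% lower. At an unadjusted p under 0.05, 0 members were again lower, as in limma-voom and DESeq2, which called 21% and 17.5% of all genes lower. Both comparisons use the same 3 wild-type libraries and so are not independent of each other. The median log2 fold change of the members was 1.54 (2.90-fold) for Lin28a-induced over wild type and 1.46 (2.76-fold) for no-Cre over wild type, against -0.02 over all tested genes in each. Every tested member had a log2 fold change above 0 in both comparisons, against 48.3% and 48.4% of all tested genes. The filter on low counts had left out Lyve1 and Stab2, and it bears on this count. With no filter, the log2 fold change over wild type was -1.87 (Lin28a-induced) and -1.69 (no-Cre) for Lyve1. For Stab2 it was 1.47 and 0.693. Klf2, low in wild type, passed the filter through the transgenic libraries, where it was higher. The libraries of the groups did not overlap for 34 of the 38 members in the comparison of Lin28a-induced with wild type, against 24.7% higher and 24.6% lower of all tested genes. In the comparison of no-Cre with wild type all 38 were higher without overlap, against 25.8% higher and 26.2% lower of all tested genes. These libraries are of whole tissue, where fewer cells of a type and less RNA per cell cannot be told apart.

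**Figure D1:**
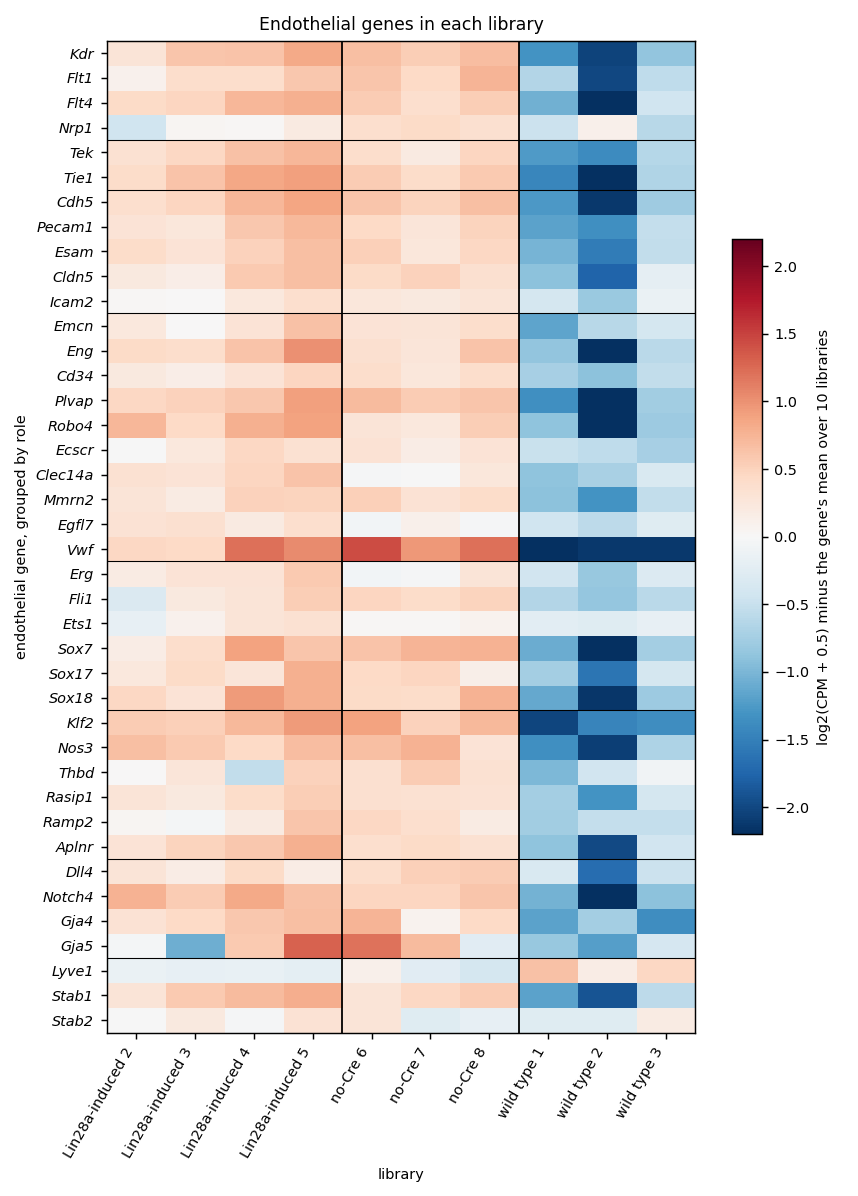
Level of each of the 40 endothelial genes (rows, grouped by role) in each of the 10 libraries (columns), as log2(CPM + 0.5) minus the gene's mean over the 10 libraries; colours end at -2.2 and 2.2. The 3 wild-type columns are blue for most genes, deepest in replicate 2, while the Lin28a-induced and no-Cre columns look alike; Lyve1 runs the other way.

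The size of the difference from wild type ran widely. In the Lin28a-induced libraries 2 members were higher by at least 8-fold, 8 by 4-fold to under 8-fold, 18 by 2-fold to under 4-fold and 7 by under 2-fold. In the no-Cre libraries these counts were 2, 4, 22 and 8. Both times the genes past 8-fold were Klf2 and Vwf. The 34 genes higher in both comparisons left out Ets1, which at this threshold passed for Lin28a-induced but not for no-Cre, Nrp1 and Thbd, which passed for no-Cre but not for Lin28a-induced, and Gja5, which passed in neither. Whether Ets1, Nrp1 and Thbd differ between the Lin28a-induced and no-Cre groups is the comparison given above, in which none passed.

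**Figure D2:**
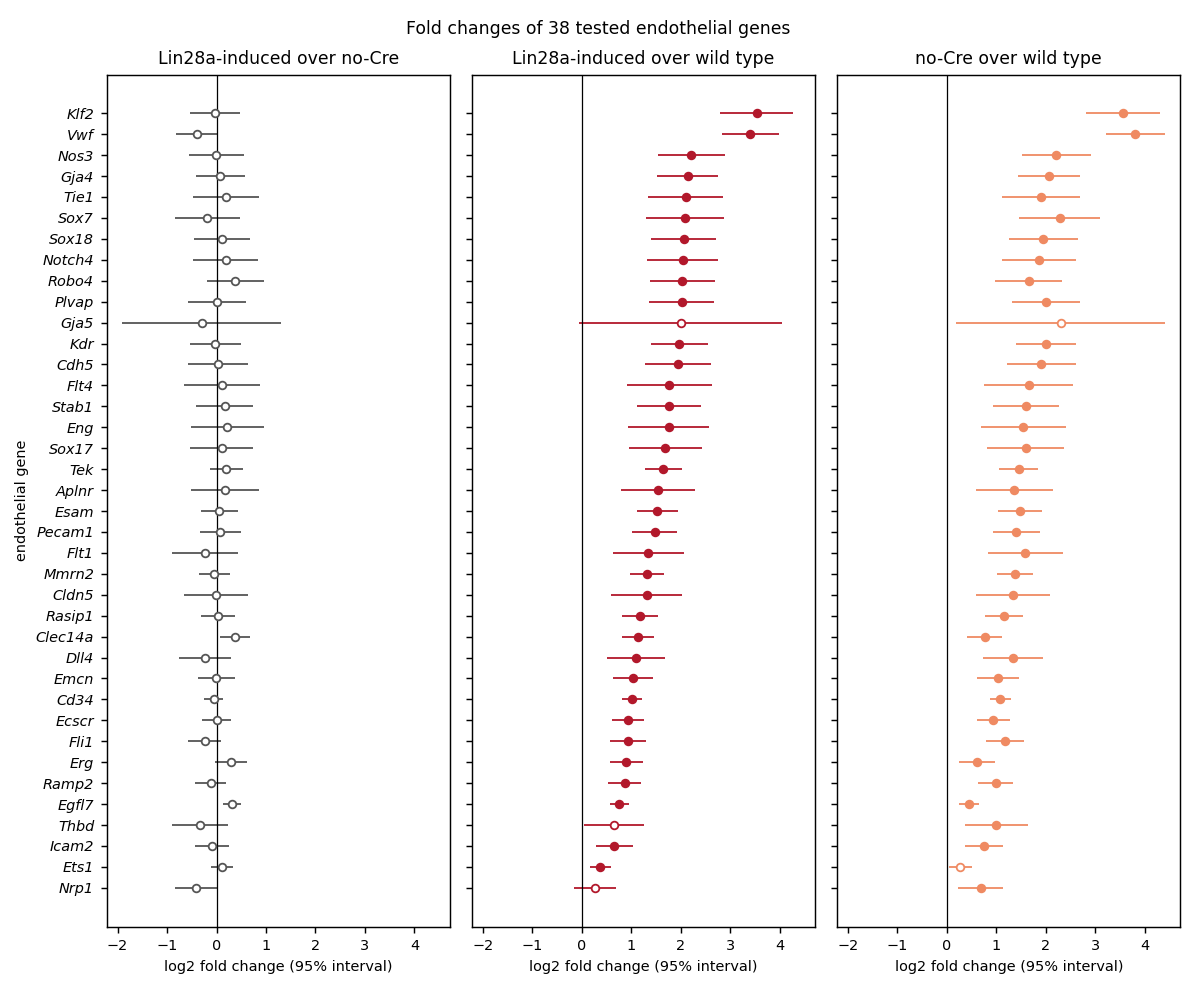
Log2 fold change of the 38 tested endothelial genes (rows) with its 95% interval, in the 3 comparisons (panels, same horizontal scale). Filled points passed an adjusted p of 0.05 in edgeR and open points did not: all points are open for Lin28a-induced over no-Cre, 35 are filled for Lin28a-induced over wild type and 36 for no-Cre over wild type.

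Among the VEGF receptors, Kdr, the main signalling receptor for VEGF in endothelium, had 52.8, 66.7, 67.1 and 78.0 CPM in Lin28a-induced, 68.9, 63.4 and 69.3 CPM in no-Cre and 17.1, 10.1 and 23.5 CPM in wild-type libraries. All 7 transgenic libraries lay above the 3 wild-type ones, and the Lin28a-induced and no-Cre libraries overlapped. The fold was 3.93 for Lin28a-induced over wild type (log2 1.98, SE 0.25, adjusted p = 0.000314) and 0.985 over no-Cre (95% interval 0.688 to 1.41). Flt4, the receptor of lymphatic growth factors, had 20.6, 21.2, 25.4 and 26.3 CPM in Lin28a-induced, 22.5, 19.7 and 22.4 CPM in no-Cre and 7.08, 2.51 and 11.1 CPM in wild-type libraries. It was 3.42-fold higher in Lin28a-induced than in wild type (adjusted p = 0.00485), again with no overlap. Flt1, which binds VEGF and limits its signal, was 2.55-fold higher (adjusted p = 0.00776).

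Nrp1, a co-receptor for VEGF that neurons and other cells also use, did not follow the VEGF receptors. It had 29.9, 42.2, 41.5 and 46.8 CPM in Lin28a-induced, 52.8, 55.2 and 52.6 CPM in no-Cre and 29.4, 44.2 and 26.4 CPM in wild-type libraries. The 4 Lin28a-induced libraries lay below all 3 no-Cre libraries and overlapped wild type. Its log2 fold change was -0.42 over no-Cre (SE 0.18, unadjusted p = 0.0499, adjusted p = 0.307), the most negative of all members, and 0.68 for no-Cre over wild type (adjusted p = 0.0228). The last call was lost without no-Cre replicate 7, wild-type replicate 1 or wild-type replicate 3 (adjusted p 0.0573, 0.0702 and 0.0629). Against wild type, Lin28a-induced Nrp1 passed only without wild-type replicate 2 (log2 0.52, adjusted p = 0.0250). Neural marker genes summed to 366 to 386 CPM over 8 genes in Lin28a-induced, 421 to 445 CPM in no-Cre and 270 to 300 CPM in wild-type libraries. Their part in the Nrp1 values was not tested.

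Both angiopoietin receptors were higher than in wild type. Tek, the receptor itself, had 25.9, 28.3, 32.2 and 34.1 CPM in Lin28a-induced, 26.8, 23.5 and 28.5 CPM in no-Cre and 8.35, 7.54 and 13.0 CPM in wild-type libraries. Tie1, its partner receptor, had 28.3, 33.3, 38.9 and 40.3 CPM in Lin28a-induced, 31.6, 28.4 and 32.1 CPM in no-Cre and 7.51, 4.06 and 13.3 CPM in wild-type libraries. In both genes every transgenic library was above every wild-type library. Tek was 3.14-fold (log2 1.65, SE 0.17, adjusted p = 1.33e-05) and Tie1 4.28-fold (log2 2.10, SE 0.33, adjusted p = 0.000985) higher in Lin28a-induced than in wild type. Over no-Cre both had a fold of 1.15, with intervals of 0.907 to 1.45 for Tek and 0.723 to 1.82 for Tie1.

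All 5 junction genes were higher than in wild type in both transgenic groups. Cdh5, which encodes VE-cadherin of the adherens junction, had 78.2, 83.7, 100.2 and 110.3 CPM in Lin28a-induced, 92.0, 84.5 and 96.1 CPM in no-Cre and 24.7, 13.4 and 34.7 CPM in wild-type libraries. Pecam1, an adhesion protein of endothelial contacts, had 45.5, 43.7, 56.1 and 60.3 CPM in Lin28a-induced, 50.3, 44.2 and 51.7 CPM in no-Cre and 16.1, 14.2 and 25.4 CPM in wild-type libraries. Neither gene's wild-type libraries reached the lowest transgenic library. Cdh5 was 3.86-fold (SE of the log2 value 0.29, adjusted p = 0.000912) and Pecam1 2.78-fold (0.20, adjusted p = 0.000288) higher in Lin28a-induced than in wild type. Esam, an adhesion molecule, and Cldn5, the tight junction claudin of endothelium, were 2.89-fold and 2.49-fold higher. Icam2 was higher by 1.58-fold only, at 6.36 ± 0.834 CPM in Lin28a-induced (SD, n = 4), 6.77 ± 0.160 CPM in no-Cre (n = 3) and 4.05 ± 1.03 CPM in wild type (n = 3).

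**Figure D3:**
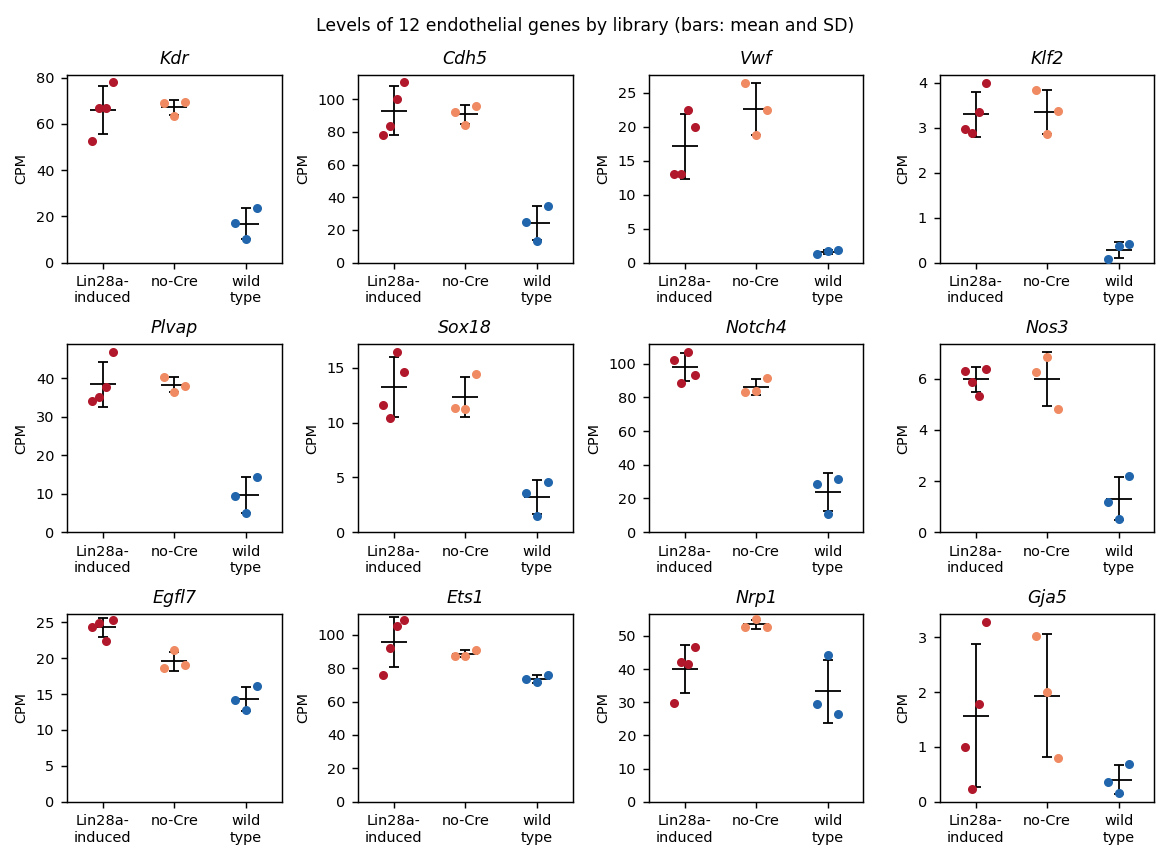
CPM of 12 endothelial genes (1 panel each, vertical axes from 0) in the Lin28a-induced, no-Cre and wild-type libraries; points are libraries, and bars give the mean and SD. For Kdr, Cdh5, Vwf, Klf2, Plvap, Sox18, Notch4 and Nos3 all transgenic libraries lie above all wild-type ones, while Ets1, Nrp1 and Gja5 show overlap of Lin28a-induced with wild type, and Egfl7 has 3 groups that do not overlap.

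The surface and matrix genes gave all 10 of 10 members higher than wild type in both groups, over a wide range of folds. Vwf (chr6:125546774-125686679, plus strand, GRCm38), the clotting protein that endothelium and megakaryocytes store, had 13.1, 13.1, 22.5 and 19.9 CPM in Lin28a-induced, 26.5, 18.9 and 22.5 CPM in no-Cre and 1.27, 1.78 and 1.79 CPM in wild-type libraries, where it rested on 32, 44 and 39 counts. The wild-type libraries were low together, and the Lin28a-induced libraries overlapped no-Cre at the lower end. Vwf was 10.6-fold higher in Lin28a-induced than in wild type (log2 3.41, SE 0.26, adjusted p = 1.67e-06), 14.03-fold higher in no-Cre than in wild type (adjusted p = 1.39e-06) and 0.759-fold in Lin28a-induced over no-Cre (interval 0.564 to 1.02, adjusted p = 0.344). Markers of megakaryocytes and platelets, which also make Vwf, summed to 11.7 to 31.4 CPM over 8 genes in Lin28a-induced, 10.5 to 22.7 CPM in no-Cre and 5.84 to 17.4 CPM in wild-type libraries. Of the 8, 4 were higher in Lin28a-induced than in wild type, against 24.3% of all tested genes, and none was at 0 in all libraries. The summed levels of the groups overlapped, and the part of these markers in the Vwf difference was not tested.

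Plvap, which forms the diaphragms of fenestrated vessels, had 34.1, 35.2, 37.7 and 46.8 CPM in Lin28a-induced, 40.3, 36.5 and 38.1 CPM in no-Cre and 9.34, 4.99 and 14.3 CPM in wild-type libraries. Robo4, a receptor that stabilises vessels, had 14.8, 11.9, 15.4 and 16.6 CPM in Lin28a-induced, 10.7, 10.3 and 12.9 CPM in no-Cre and 4.49, 1.501 and 4.82 CPM in wild-type libraries. Both were highest in Lin28a-induced replicate 5 and lowest in wild-type replicate 2. Plvap was 4.05-fold (adjusted p = 0.000531) and Robo4 4.09-fold (adjusted p = 0.000267) higher in Lin28a-induced than in wild type. Emcn, a sialomucin of veins and capillaries, Cd34, a sialomucin of vessel and progenitor surfaces, and Ecscr, a surface protein of endothelium, gave smaller folds of 2.05, 2.03 and 1.92, and Eng, a co-receptor for TGF-beta family ligands, and Mmrn2, a matrix protein that binds Clec14a, gave 3.39 and 2.51.

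Egfl7 and Clec14a were the 2 members that lay higher in every Lin28a-induced library than in every no-Cre library. The same held for 12% of all tested genes, and both members are named after their values were seen. Egfl7, a secreted factor of angiogenic endothelium whose gene (chr2:26580014-26593120, plus strand, GRCm38) hosts the endothelial microRNA Mir126a, had 24.3, 24.9, 22.4 and 25.4 CPM in Lin28a-induced, 18.7, 21.1 and 19.0 CPM in no-Cre and 14.2, 12.8 and 16.1 CPM in wild-type libraries. Clec14a, a surface lectin of tip cells, had 10.4, 10.05, 11.4 and 12.7 CPM in Lin28a-induced, 7.98, 8.04 and 9.68 CPM in no-Cre and 4.13, 4.75 and 6.29 CPM in wild-type libraries. The 3 groups were ordered in both genes, with Lin28a-induced above no-Cre and no-Cre above wild type. Over no-Cre, Egfl7 was 1.24-fold (log2 0.31, SE 0.09, adjusted p = 0.0792), which is the smallest adjusted p of all members, and Clec14a 1.3004-fold (log2 0.38, SE 0.14, adjusted p = 0.197). With the spread estimated from the Lin28a-induced and no-Cre libraries alone, adjusted p was 0.0128 for Egfl7, 0.0384 for Clec14a and 0.0476 for Robo4. That fit also called more of all tested genes than the main fit, as counted below. With DESeq2 adjusted p was 0.0260 for Egfl7 and 0.120 for Clec14a, where 3.62% of all genes were higher and 3.4% lower. Egfl7 also passed without wild-type replicate 2 or wild-type replicate 3, and its adjusted p ran from 0.0194 to 0.291 over the 10 fits that each left out 1 library.

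The ETS and SoxF factors split by family. Sox7, Sox17 and Sox18, which specify endothelial and arterial fate, were higher by 4.25-fold, 3.23-fold and 4.17-fold in Lin28a-induced than in wild type. Sox7 had 5.08, 6.01, 8.69 and 7.11 CPM in Lin28a-induced, 7.22, 7.92 and 7.93 CPM in no-Cre and 1.83, 0.487 and 2.48 CPM in wild-type libraries. Sox18 had 11.6, 10.5, 16.4 and 14.7 CPM in Lin28a-induced, 11.3, 11.3 and 14.5 CPM in no-Cre and 3.54, 1.501 and 4.59 CPM in wild-type libraries. Wild type lay below both transgenic groups in each gene. Sox17 had 2.44, 2.87, 2.54 and 3.81 CPM in Lin28a-induced, 2.92, 2.98 and 2.26 CPM in no-Cre and 0.994, 0.325 and 1.42 CPM in wild-type libraries, again with wild type below. Its median level per kilobase of exon, 0.567 CPM in Lin28a-induced libraries, was the lowest of the SoxF genes, against 1.99 CPM for Sox7 and 8.11 CPM for Sox18. Adjusted p for Lin28a-induced over wild type was 0.00064 for Sox7, 0.00117 for Sox17 and 0.000256 for Sox18.

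The 3 ETS factors, which switch on many endothelial promoters, gave smaller folds. Erg had 9.70, 10.7, 10.6 and 12.9 CPM in Lin28a-induced, 8.11, 8.399 and 10.4 CPM in no-Cre and 6.24, 4.54 and 6.84 CPM in wild-type libraries, a fold of 1.87 for Lin28a-induced over wild type (adjusted p = 0.000372). Fli1 gave a fold of 1.92 (adjusted p = 0.000578). Ets1, which mesenchymal and other cells also express, had 75.8, 92.2, 106 and 109 CPM in Lin28a-induced, 87.5, 87.5 and 91.0 CPM in no-Cre and 73.4, 71.4 and 76.2 CPM in wild-type libraries. Lin28a-induced replicate 2 fell inside the wild-type range, and the no-Cre libraries lay above it. Its fold over wild type was 1.298 for Lin28a-induced (log2 0.38, SE 0.10, adjusted p = 0.00801) and 1.20 for no-Cre (log2 0.27, SE 0.11, adjusted p = 0.0609). The first value lost its call without wild-type replicate 2 (adjusted p = 0.0621). The second passed with DESeq2 (adjusted p = 0.0381), with only the compared groups (0.00715) and without Lin28a-induced replicate 2 or 5.

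Klf2 (chr8:72319033-72321656, plus strand, GRCm38), a transcription factor that blood flow induces, had the largest fold for Lin28a-induced over wild type. It had 2.97, 2.87, 3.35 and 3.99 CPM in Lin28a-induced, 3.83, 2.86 and 3.36 CPM in no-Cre and 0.0795, 0.365 and 0.413 CPM in wild-type libraries. Behind these stood 90, 99, 107 and 157 counts in Lin28a-induced, 147, 96 and 98 counts in no-Cre and 2, 9 and 9 counts in wild-type libraries, so that the low group was measured on few reads. Klf2 passed the filter on low counts only through the transgenic libraries, so its rank by fold depends in part on that filter. The fold was 11.6 for Lin28a-induced over wild type (interval 6.99 to 19.3, adjusted p = 2.58e-06), 11.8 for no-Cre over wild type (interval 6.99 to 19.9) and 0.984 for Lin28a-induced over no-Cre (interval 0.694 to 1.40). Nos3, the endothelial nitric oxide synthase and another flow-induced gene, had 6.30, 5.89, 5.33 and 6.40 CPM in Lin28a-induced, 6.28, 6.85 and 4.804 CPM in no-Cre and 1.19, 0.527 and 2.204 CPM in wild-type libraries. Both genes separated wild type from the other libraries without overlap, and Nos3 was 4.64-fold higher in each transgenic group than in wild type (adjusted p = 9.24e-05 for Lin28a-induced). Exons of Nos3 share 25.2% of their length with an antisense gene, Gm15587, which held 10 counts over all libraries.

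Thbd, the anticoagulant thrombomodulin, which flow also induces, was weaker. It had 3.66, 4.44, 2.35 and 5.36 CPM in Lin28a-induced, 4.74, 5.57 and 4.74 CPM in no-Cre and 1.59, 2.596 and 3.40 CPM in wild-type libraries. Lin28a-induced replicate 4 lay within the wild-type range. The log2 fold change was 0.66 for Lin28a-induced over wild type (adjusted p = 0.0683) and 0.996 for no-Cre over wild type (adjusted p = 0.0160). The first passed without Lin28a-induced replicate 4 or wild-type replicate 3, and the second was lost without no-Cre replicate 7 or wild-type replicate 1. Of the signalling genes in this group, Aplnr, the apelin receptor, was 2.91-fold higher in Lin28a-induced than in wild type, Rasip1, needed for vessel lumens, 2.27-fold and Ramp2, a subunit of the adrenomedullin receptor, 1.83-fold. Ramp2 shares 33.4% of its exon length with Vps25, and Rasip1 20.4% with Izumo1, each on the same strand, so part of their reads could belong to either gene.

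Of the arterial and Notch genes, Notch4, the endothelial Notch receptor, had 102, 88.6, 107 and 93.5 CPM in Lin28a-induced, 82.9, 83.8 and 91.6 CPM in no-Cre and 28.8, 10.99 and 31.7 CPM in wild-type libraries. Dll4, the Notch ligand of tip cells and arteries, had 6.33, 5.78, 7.02 and 5.77 CPM in Lin28a-induced, 6.80, 7.54 and 7.72 CPM in no-Cre and 3.94, 1.26 and 3.53 CPM in wild-type libraries. Gja4, a gap junction connexin of arteries, had 2.57, 2.85, 3.23 and 3.40 CPM in Lin28a-induced, 3.62, 2.11 and 2.85 CPM in no-Cre and 0.596, 0.974 and 0.459 CPM in wild-type libraries. None of the 3 genes had a transgenic library inside its wild-type range. The fold over wild type in Lin28a-induced libraries was 4.11 for Notch4 (adjusted p = 0.00105), 2.14 for Dll4 (adjusted p = 0.00479) and 4.41 for Gja4 (adjusted p = 3.92e-05). Gja5, the other arterial connexin, had 0.990, 0.232, 1.79 and 3.28 CPM in Lin28a-induced, 3.02, 1.995 and 0.789 CPM in no-Cre and 0.358, 0.162 and 0.689 CPM in wild-type libraries. Lin28a-induced replicate 3 lay within the wild-type range and replicate 5 at the top of all libraries, and neither comparison with wild type passed (log2 1.998, SE 0.91, adjusted p = 0.0968 for Lin28a-induced, and log2 2.298, SE 0.93, adjusted p = 0.0758 for no-Cre). Without Lin28a-induced replicate 3 both passed (adjusted p = 0.0137 and 0.0175), and no-Cre over wild type also passed without Lin28a-induced replicate 5 (0.0332), with DESeq2 (0.0436), with only the compared groups (0.0154) and with a spread that is not robust (0.0390).

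The lymphatic and scavenger receptor genes did not share a direction. Stab1, a scavenger receptor of sinusoidal endothelium and macrophages, was 3.40-fold higher in Lin28a-induced than in wild type, at 46.1 ± 6.96 CPM against 13.6 ± 6.15 CPM (SD, n = 4 and 3), with 41.1 ± 4.10 CPM in no-Cre (n = 3). Lyve1, the hyaluronan receptor of lymphatic vessels and some macrophages, had 4, 4, 4 and 4 counts in Lin28a-induced, 10, 3 and 1 counts in no-Cre and 15, 7 and 10 counts in wild-type libraries, and it was not tested after the filter. Scaled to library size, 0.102 to 0.132 CPM in Lin28a-induced libraries lay below 0.284 to 0.596 CPM in wild type. With no filter its log2 fold change was -1.87 for Lin28a-induced over wild type (adjusted p = 0.0273), the direction opposite to the other members that passed, and -1.69 for no-Cre over wild type (adjusted p = 0.0733). Stab2, a hyaluronan and heparin scavenger receptor of liver and spleen sinusoids, had 3, 7, 3 and 10 counts in Lin28a-induced, 9, 0 and 1 counts in no-Cre and 0, 0 and 4 counts in wild-type libraries, too few to compare.

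Within a group the members moved with the library. Wild-type replicate 2 was the lowest of the 3 wild-type libraries for 30 of the 40 members, against 39.7% of all tested genes, and wild-type replicate 3 was the highest for 35, against 32.3%. The 10 members for which replicate 2 was not the lowest were Nrp1, Emcn, Ecscr, Clec14a, Vwf, Klf2, Thbd, Ramp2, Gja4 and Stab2. Among the Lin28a-induced libraries replicate 5 was the highest for 32 of 40 members, against 25.4% of all tested genes. Replicates 2 and 3 were the lowest for 17 members each, against 29.2% and 26.1% of all tested genes. Replicate 5 was the only female library of its group, and the part of sex in this order was not tested. The summed level of the 40 genes was 935, 994, 1135 and 1234 CPM in Lin28a-induced, 1049.6, 1003 and 1080.3 CPM in no-Cre and 420.5, 324 and 523 CPM in wild-type libraries. Leaving out wild-type replicate 2 changed the median log2 fold change of the members to 1.28 for Lin28a-induced over wild type and 1.18 for no-Cre over wild type, and 35 and 36 members still passed as higher. Without wild-type replicate 3 the medians were 1.87 and 1.79, with 36 and 35 members higher. With all libraries kept, 24.3% and 21% of all tested genes were higher. The shares of all genes in the fits without a library are not given here.

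Other lists moved between the same libraries. As background for the counts below, 24.3% of all tested genes were higher and 25% lower in Lin28a-induced than in wild type. For no-Cre over wild type 21% were higher and 21.4% lower. Macrophage genes summed over 11 markers to 116 to 144 CPM in Lin28a-induced, 101 to 124 CPM in no-Cre and 46.4 to 91.2 CPM in wild-type libraries, and 9 of the 11 were higher in Lin28a-induced than in wild type. Surface epithelium genes went the other way, at 276 to 323 CPM over 8 markers in Lin28a-induced, 295 to 332 CPM in no-Cre and 826 to 1034 CPM in wild-type libraries, with 8 of 8 lower in each transgenic group than in wild type. Mural cell genes, which mark the cells that wrap vessels, summed over 10 markers to 247 to 302 CPM in Lin28a-induced, 234 to 249 CPM in no-Cre and 184 to 276.5 CPM in wild-type libraries, so their groups overlapped. Mesenchyme genes summed over 8 markers to 263 to 334 CPM in Lin28a-induced, 327 to 356 CPM in no-Cre and 306 to 359 CPM in wild-type libraries, with overlap in the sum, while 4 of 7 tested markers were lower and 1 higher than wild type in each transgenic group (median log2 fold change -1.19 for Lin28a-induced and -1.30 for no-Cre). Red blood cell genes summed over 12 markers, mostly globin, to 3758 to 6157 CPM in Lin28a-induced, 5665 to 9575 CPM in no-Cre and 2765 to 8102 CPM in wild-type libraries, and 6 of the 12 were higher and 1 lower than wild type in each transgenic group. The higher ones included Klf1, Slc4a1 and Epor, which are not globins, and in each of these 3 no wild-type library overlapped with a transgenic one. Of all tested genes, 24.7% (Lin28a-induced) and 25.8% (no-Cre) were higher than wild type without overlap. The red blood cell list did not share a direction. Its log2 fold changes over wild type ran from -3.05 to 8.41 for Lin28a-induced and from -2.54 to 8.98 for no-Cre. They were below 0 for 5 and 3 of the 12 markers. No marker of the cell type lists was at 0 in all libraries, while 5 of 13 mitochondrially encoded genes were. The part of these differences in the endothelial values was not tested.

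**Figure D4:**
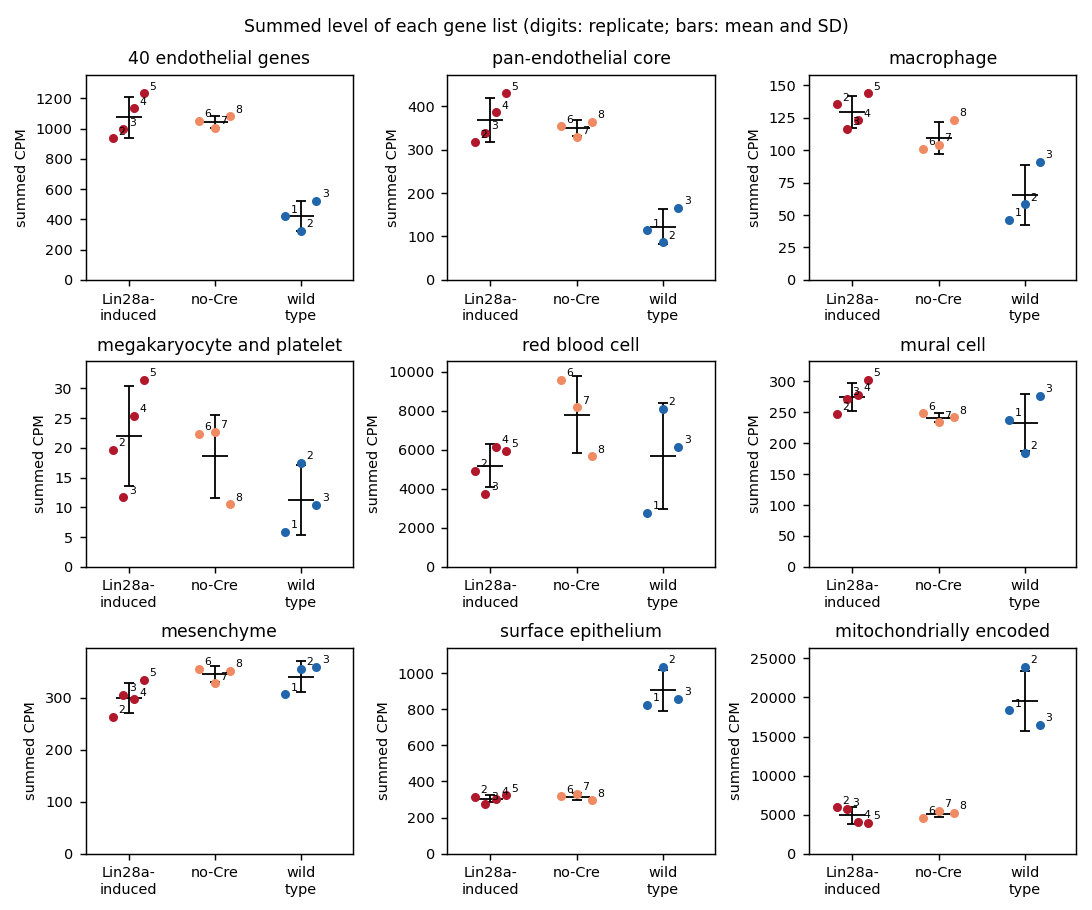
Summed CPM (vertical axes from 0) of the 40 endothelial genes, of 10 pan-endothelial core genes and of the marker lists of other cell types and of mitochondrially encoded genes, by library; digits give the replicate, and bars the mean and SD. The endothelial sums are 935 to 1234 CPM in Lin28a-induced, 1003 to 1080.3 CPM in no-Cre and 324 to 523 CPM in wild-type libraries; macrophage sums are also lower in wild type, and surface epithelium and mitochondrial sums are higher there.

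To see whether the members changed in proportion, each was set against the summed CPM of 10 core genes (Cdh5, Pecam1, Tie1, Tek, Kdr, Cldn5, Esam, Emcn, Egfl7 and Erg). The core summed to 317, 338, 386 and 429.7 CPM in Lin28a-induced, 353, 328 and 364 CPM in no-Cre and 114, 86.2 and 165.5 CPM in wild-type libraries. Relative to it, Klf2 stood at 0.849% to 0.936% in Lin28a-induced, 0.871% to 1.08% in no-Cre and 0.0697% to 0.423% in wild type. Vwf stood at 3.86% to 5.82% in Lin28a-induced, 5.74% to 7.48% in no-Cre and 1.08% to 2.07% in wild type. Neither share overlapped between wild type and the transgenic groups. Ets1 ran the other way, at 23.9% to 27.3% in Lin28a-induced, 24.8% to 26.6% in no-Cre and 46.0% to 82.8% in wild type, and so did Egfl7, at 5.82% to 7.67%, 5.21% to 6.43% and 9.71% to 14.8% in the same order of groups. Cd34 stood at 13.1% to 15.1% in Lin28a-induced, 14.8% to 15.2% in no-Cre and 17.0% to 25.3% in wild type.

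Library sizes were then set to the core counts, and the core is itself made of members. This moved the median log2 fold change of all genes to -1.69 for Lin28a-induced and -1.62 for no-Cre over wild type. Most of all tested genes passed against wild type on this scale, as counted below. The counts of members that follow are therefore not a result about the members. For Lin28a-induced over wild type 5 members were higher (Tie1, Nos3, Vwf, Klf2 and Notch4) and 11 lower (Cd34, Egfl7, Thbd, Emcn, Nrp1, Fli1, Ets1, Ramp2, Icam2, Erg and Ecscr). For no-Cre over wild type 5 were higher (Nos3, Vwf, Plvap, Klf2 and Sox7) and 10 lower (Cd34, Egfl7, Emcn, Nrp1, Ets1, Ramp2, Icam2, Clec14a, Erg and Ecscr). Klf2 kept a log2 fold change of 1.91 and Vwf of 1.73 for Lin28a-induced over wild type on this scale, and none of the members passed for Lin28a-induced over no-Cre. Among the genes lower on it were Nrp1 (log2 -1.51), Ets1 (-1.31), Thbd (-0.98), Egfl7 (-0.88) and Erg (-0.73). The scaling moves all genes alike, so that members with a fold below that of the core turn negative: 20 of the 38 had a log2 fold change below 0 for Lin28a-induced over wild type and 20 for no-Cre over wild type, where none did relative to all genes. A member's direction against wild type is therefore a direction relative to all genes.

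**Figure D5:**
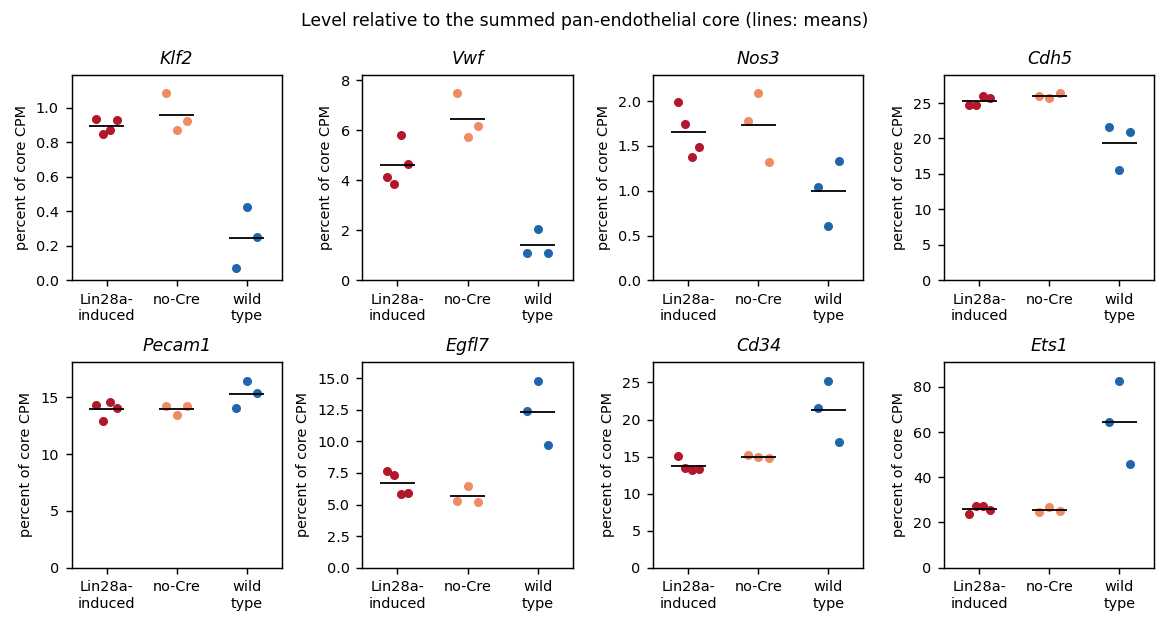
Level of 8 endothelial genes as a percent of the summed CPM of the 10 core genes (vertical axes from 0) in each library; lines are group means. Klf2 and Vwf are below the other groups in wild type, Cdh5 lies lower there, Nos3 at 0.611% to 1.33% meets the lowest no-Cre share of 1.32%, Pecam1 overlaps between groups, and Egfl7, Cd34 and Ets1 are above the other groups in wild type.

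Per kilobase of exon, median levels put Cdh5 at the top in Lin28a-induced libraries, with 21.9 CPM per kilobase, ahead of Aplnr (21.1), Plvap (18.3), Notch4 (12.2), Ets1 (11.7) and Cldn5 (10.4). In the no-Cre libraries Cdh5 led as well, with 21.9 CPM per kilobase, ahead of Plvap (19.2) and Aplnr (18.6). In wild type the order was led by Ets1 (8.66), Aplnr (7.74), Cdh5 (5.87) and Plvap (4.70). Lyve1 and Stab2 were below 0.2 CPM per kilobase in every group. Kdr moved to rank 20 of 40 in wild type, against rank 9 in Lin28a-induced and rank 8 in no-Cre libraries, and Pecam1 to rank 14, against rank 7 in both.

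Of 70 further genes of endothelial biology, 62 were tested. Between Lin28a-induced and no-Cre 2 passed, both lower, where 1.76% of all tested genes were higher and 1.15% lower: Notch1, a Notch receptor of arterial endothelium and of many progenitors, and Pdpn, a glycoprotein of lymphatic vessels and epithelia. Notch1 had 409, 461, 473 and 432 CPM in Lin28a-induced, against 513, 618 and 534 CPM in no-Cre libraries (log2 -0.32, adjusted p = 0.0403), and Pdpn had 49.4, 48.5, 51.9 and 43.0 CPM against 64.8, 61.3 and 62.9 CPM (log2 -0.39, adjusted p = 0.00763). In both the groups did not overlap, where 11.4% of all tested genes were lower in Lin28a-induced than in no-Cre without overlap. The other genes with the smallest p in their lists did not pass: Tmem100 (log2 -0.93, adjusted p = 0.0972), Efnb2 (-0.23, 0.229) and Calcrl (0.26, 0.431) among signalling genes, Jag1 (-0.15, 0.394) and Heyl (-0.37, 0.521) among Notch partners, Elk3 (0.23, 0.123), Foxc2 (-0.28, 0.268) and Prox1 (0.23, 0.333) among transcription factors, Myct1 (0.50, 0.251) and Icam1 (0.28, 0.401) among effector genes, and Nrp2 (-0.16, 0.493), Pgf (0.21, 0.627) and Figf (-0.32, 0.640) among ligands and co-receptors. Against wild type 37 of the 62 were higher and 11 lower in Lin28a-induced, where 24.3% of all tested genes were higher and 25% lower. In no-Cre libraries 34 were higher and 11 lower, where 21% and 21.4% of all tested genes were. The median log2 fold change was 0.50 in each.

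By list, 2 of 8 VEGF and angiopoietin ligand and co-receptor genes were higher in Lin28a-induced than in wild type and 3 lower, which for the higher ones is near the 24.3% of all tested genes (25% lower), a background that holds for the lists that follow too. They included Vegfa, the main VEGF ligand (log2 -0.66, adjusted p = 1.81e-05), Nrp2 (-0.62, adjusted p = 0.000336) and, as a higher one, Vegfc, the lymphatic ligand (0.84, adjusted p = 0.000158). Of 15 other vascular signalling genes 7 were higher and 1 lower, led by Ptprb, the phosphatase that restrains Tek (1.79, adjusted p = 2.76e-05), Pdgfb, the ligand that recruits mural cells (1.04, adjusted p = 0.000142), and Acvrl1, a receptor of endothelial BMP signalling (1.18, adjusted p = 0.000402). Of 8 Notch partners 5 were higher and 3 lower, with Notch1 (1.12, adjusted p = 1.82e-07) and Hey2 (0.67, adjusted p = 0.000561) higher and Hes1 lower (-0.52, adjusted p = 0.000512). Of 14 other transcription factors 10 were higher and 1 lower, with Foxc2, a factor of lymphatic valves and of mesoderm (2.08, adjusted p = 3.42e-07), Elk3 (0.52, adjusted p = 0.000113) and Bcl6b (1.14, adjusted p = 0.000192) the smallest in p. Of 17 other effector genes 13 were higher and 3 lower, with Cyyr1 (2.40, adjusted p = 4.1e-06) and Arhgef15 (1.49, adjusted p = 9.48e-06) higher and Podxl, a sialomucin of vessels and of epithelia, lower (-1.31, adjusted p = 2.26e-09).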

How the data were processed

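Raw read counts for each gene symbol, not normalized, are what the authors deposited. The submitters' processing notes name mm10, STAR 2.3.1z4, featureCounts and DESeq2, the last without saying for which step. Per the labels' protocols, a directional kit and single reads of 75 bases were used. The annotation and the strand setting of the counting were not stated. Exon lengths came from GENCODE M21 (GRCm38), which matched 35654 of 38720 symbols.

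edgeR 4.0.16 fitted all 10 libraries and 3 groups at once (filterByExpr, TMM, robust quasi-likelihood test), with Benjamini-Hochberg adjustment over the 16340 genes tested and a threshold of 0.05. The fit was checked on simulated data in which only a small part of the genes changed. That check does not cover the comparisons with wild type, where many genes differed. CPM, folds and intervals were computed here, with limma 3.58.1 and DESeq2 1.42.0 as alternatives under R 4.3.3; descriptions and plots used Python 3.11.15 with numpy 2.4.6, pandas 2.3.3 and matplotlib 3.10.9. Every pair of replicates differed beyond sampling noise.

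The members and all lists were chosen with earlier results of these data known. Values in every library are given for the members past the threshold with the largest folds over wild type (up to 12 in each comparison) and for Kdr, Tek, Cdh5, Pecam1, Plvap, Erg, Sox17, Klf2, Dll4, Gja5, Lyve1, Stab2 and Nrp1. Egfl7, Clec14a, Ets1 and Thbd, and members given by mean or fold alone, were added after their values were seen. For each further list, up to 3 genes with the smallest p are named in the comparison of Lin28a-induced with no-Cre and in that with wild type. Besides other tools, filters, size factors and spreads, the alternatives fitted the compared groups alone, added sex as a term, dropped globin and mitochondrial genes, scaled to the endothelial core, blocked on replicate number and left out each library.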

Additional observations from a re-analysis of the deposited data

How the results depend on the processing

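Counts of members called higher than wild type stayed within 1.5 times of 35 (Lin28a-induced) and 36 (no-Cre) under every setting but core scaling, which gave 5 higher in each, with 11 lower for Lin28a-induced and 10 lower for no-Cre, and the replicate block. Core scaling also left 12 genes called for Lin28a-induced over no-Cre and 15321 and 15109 over wild type, and it put 20 of 38 members below 0 against wild type in each comparison. Among the members named in the text by a fixed list and followed through every setting, the log2 fold change turned to -0.46 (Lin28a-induced) and -0.16 (no-Cre) for Dll4, -0.73 and -0.94 for Erg, -1.51 and -1.01 for Nrp1, -0.13 and -0.13 for Pecam1, and -0.083 for Tek in no-Cre. Of these only Erg and Nrp1 passed the test on that scale. The scaling moves all genes alike and is built on members, Erg, Pecam1 and Tek among them, so members with a fold below the core turn by construction.

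The groups share replicate numbers 2 and 3 only for Lin28a-induced and wild type, and no label says that the numbers pair the samples; deviations of same-numbered libraries correlated at -0.02 and -0.10. With the replicate block 23 members were higher, and 3596 of all genes passed; that fit holds 4 libraries. The 12 calls lost were Aplnr, Cdh5, Cldn5, Eng, Ets1, Flt4, Icam2, Notch4, Plvap, Ramp2, Robo4 and Tie1. The median log2 fold change of the members was 1.46 in that fit, and folds were 3.69 for Cdh5, 4.97 for Notch4, 3.98 for Plvap and 4.04 for Tie1.

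For Lin28a-induced over no-Cre, members called higher were 3 with only the compared groups and 1 with DESeq2, against 0. Genes called in all numbered 1791 with only the compared groups, 952 with DESeq2 and 303 with the sex covariate, against 476. Leaving out 1 library gave 0 to 1 members higher and 104 to 1482 genes called, most without wild-type replicate 2 and fewest without no-Cre replicate 7. Lyve1 made the count of members lower than wild type 1 with DESeq2 or no filter for Lin28a-induced, and 0 to 1 when 1 library was left out, for Lin28a-induced as for no-Cre; the cause was not tested beyond its passing the filter in those fits. No called member's fold over wild type moved by more than 1.5 times when 1 library was left out. Precision is limited by 3 wild-type libraries and, for Klf2, Gja5, Sox17, Lyve1 and Stab2, by low counts.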
